A study of Mus musculus with 201 samples.

Results

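The levels of 7 autosomal long noncoding RNA genes were described in single dentate granule cells (DGCs) and single DGC nuclei of the mouse: *Meg3*, *Rian*, *Mirg*, *Malat1*, *Neat1*, *Miat* and *Snhg11*. They were chosen by name and make up 7 of the 42609 gene symbols shared by the tables of whole cells, NE nuclei and home-cage nuclei, named below. All 7 were measured in every table, and all 7 had a value above 1 TPM, a unit that scales the reads of each gene for its length and the levels of each cell to a sum of 1000000, in at least 5 cells or nuclei of each comparison below, the filter used for every gene.

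A long noncoding RNA (lncRNA) is a transcript that is not translated, and many of these RNAs stay in the nucleus. *Malat1* RNA collects in nuclear speckles, the compartments that hold splicing factors, and *Neat1* RNA forms the core of paraspeckles, which are built around proteins such as NONO and SFPQ. *Meg3*, *Rian* and *Mirg* follow each other on 1 strand of the imprinted *Dlk1*-*Dio3* domain and are expressed from the maternal chromosome, *Rian* as a host of small nucleolar RNAs and *Mirg* as a host of microRNAs. *Miat* is a nuclear lncRNA of neurons, and *Snhg11* is a small nucleolar RNA host gene.

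The study asked how the transcriptome of a single neuron differs between activated and inactive cells, and whether nuclei avoid the changes that dissociation brings to whole cells. The nuclei came from C57BL/6 females that were 8 weeks old. FOS+ and FOS− nuclei came from a mouse that had explored an unfamiliar cage (NE) for 15 min and was killed after 1 h back in its home cage. They were isolated by Dounce homogenisation and sorted by staining for the proteins PROX1 and FOS, so that FOS protein defined the sort groups. Home-cage (HC) nuclei came from 1 mouse and were positive for NEUN and PROX1. Whole cells were GFP-positive DGCs of *Prox1*-GFP mice, released with the protease papain from mice injected with pentylenetetrazole (PTZ, a convulsant, 50 mg/kg) or saline and killed 1 h later.

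The cells of each treatment came from a pool of 2 mice. The nuclei of each set came from 1 mouse. A group is therefore 1 sample, cells within it are not replicates, and differences between groups are given with the standard deviation (SD) between cells and without a p value. The cells of each treatment were also on 1 plate, so pool, plate and treatment cannot be told apart in whole cells. The differences between FOS+ and FOS− nuclei are differences within 1 mouse. After filters on depth and on the number of genes, 40 of 48 FOS+ nuclei, 41 of 48 FOS− nuclei, 23 of 23 HC nuclei, 30 of 35 PTZ cells and 38 of 47 saline cells remained. The median total count was 269061 in FOS+ nuclei, 214421 in FOS− nuclei, 165926 in HC nuclei, 1090755 in PTZ cells and 975934 in saline cells, with a range of 63775 to 5129240 over all of them. *Prox1*, the defining transcription factor of DGCs, was detected (TPM above 1) in 33 of 40 FOS+ nuclei, 34 of 41 FOS− nuclei, 14 of 23 HC nuclei and all 68 whole cells. Other DGC markers varied more. In FOS+, FOS− and HC nuclei, *Calb1* was detected in 40, 41 and 16, *Rbfox3* in 30, 31 and 11, *C1ql2* in 18, 25 and 7, and *Dsp* in 11, 9 and 3. In PTZ and saline cells, *Calb1* was detected in 23 and 33, *Rbfox3* in 27 and 33, *C1ql2* in 24 and 37, and *Dsp* in 9 and 10. *Arc*, an activity-induced gene, was detected in 31 of 40 FOS+ nuclei and 1 of 41 FOS− nuclei.

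The genes lie at 4 loci of the GRCm38 genome (GENCODE annotation). *Meg3* covers chr12:109541001-109571726, *Rian* chr12:109603940-109661716 and *Mirg* chr12:109729764-109749460, all on the plus strand. *Malat1* covers chr19:5795690-5802672 and *Neat1* chr19:5824708-5845478, both on the minus strand and each with a longest transcript of 1 exon that spans the whole gene (6983 and 20771 bases). *Miat* covers chr5:112213228-112229395 on the minus strand and *Snhg11* chr2:158375638-158386145 on the plus strand, and the annotation used here types *Snhg11* as protein-coding. *Rian* encloses 13 annotated small nucleolar RNA genes and 4 microRNA genes, and *Mirg* encloses 15 microRNA genes.

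*Rian* and *Mirg* were higher in FOS+ than in FOS− nuclei on average, whereas the difference at *Meg3*, the first of the 3, was near 0. The sequences at the RefSeq starts of the 3 chromosome 12 genes are therefore shown. Each sequence runs from 250 bases before to 50 bases after the start of the RefSeq gene on the plus strand of GRCm38.p6. Capitals mark matches, on either strand, to the cyclic AMP response element TGACGTCA, to its shorter form TGACG, to the AP-1 motif TGACTCA and to the TATA motif TATAAA.
Meg3, chr12:109540746-109541045: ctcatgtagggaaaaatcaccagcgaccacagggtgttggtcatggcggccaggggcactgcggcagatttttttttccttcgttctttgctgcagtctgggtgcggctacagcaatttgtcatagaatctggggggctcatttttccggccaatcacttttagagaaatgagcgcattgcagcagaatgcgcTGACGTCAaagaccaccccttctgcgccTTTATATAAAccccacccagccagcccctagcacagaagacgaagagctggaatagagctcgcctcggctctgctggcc
Rian, chr12:109603695-109603994: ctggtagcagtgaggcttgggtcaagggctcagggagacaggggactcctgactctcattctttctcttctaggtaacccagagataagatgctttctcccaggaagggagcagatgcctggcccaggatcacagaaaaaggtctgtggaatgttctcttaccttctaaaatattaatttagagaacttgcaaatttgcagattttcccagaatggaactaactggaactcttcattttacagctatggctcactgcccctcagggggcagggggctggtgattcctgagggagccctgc
Mirg, chr12:109734731-109735030: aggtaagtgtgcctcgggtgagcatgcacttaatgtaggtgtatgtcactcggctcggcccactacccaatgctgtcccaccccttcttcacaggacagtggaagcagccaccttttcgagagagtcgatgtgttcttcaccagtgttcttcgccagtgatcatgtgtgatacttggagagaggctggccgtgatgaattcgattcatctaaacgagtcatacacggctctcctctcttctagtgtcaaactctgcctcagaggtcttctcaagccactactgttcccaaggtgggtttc
*Meg3* holds TGACGTCA 57 bases before its start, a motif found in 1.79% of 32851 RefSeq promoters of this length, and TATAAA 25 bases before it, which is found in 13.6% of them. TGACGTCA contains TGACG on both strands, so these matches overlap. The *Rian* and *Mirg* sequences hold none of the 4 motifs, and the AP-1 motif, present in 5.20% of promoters, is absent from all 6 member promoters in the RefSeq table. The *Malat1* promoter holds TGACG 3 times, a motif found in 20.8% of promoters. The RefSeq start of *Mirg* lies inside the GENCODE gene, and the sequence shown encloses the microRNA genes *Mir668* and *Mir485*. This sequence is not the promoter of the longest GENCODE transcript, so its lack of motifs does not describe that promoter. A match describes letters only, and *Neat1* had no entry.

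*Mirg* was the member with the most mature microRNAs inside its borders, 26 from 14 hairpin genes in RefSeq, against 6 in *Rian* and 3 in *Meg3*. The 3 below are shown as examples of what the *Mirg* transcript carries, with the seed (bases 2 to 8) in capitals, and 2 of them share a seed.
mmu-miR-134-5p: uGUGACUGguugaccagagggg
mmu-miR-453: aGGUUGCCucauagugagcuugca
mmu-miR-496a-5p: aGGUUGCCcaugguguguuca
Mature microRNAs are too short for these libraries and were not measured.

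*Malat1* was the most abundant of the 7 genes in all 5 groups, and its share of the RNA was several times larger in nuclei than in whole cells. Of all TPM, *Malat1* made up a median of 13.6% of a FOS+ nucleus (range 0.0512% to 22.6%) and 8.49% of a FOS− nucleus (2.73% to 15.3%). It made up 22.5% of an HC nucleus (11.4% to 35.3%). In whole cells the median was 1.76% after PTZ (0.697% to 12.8%) and 1.52% after saline (0.602% to 4.35%). By mean log2(TPM + 1) it ranked 1st of all genes in each nuclear group and in saline cells, and 3rd in PTZ cells.

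*Meg3* came next, at a median of 1471 TPM in FOS+ nuclei (5.64 to 7511), 1364 TPM in FOS− nuclei (94.1 to 13403) and 1035 TPM in HC nuclei (173 to 3166). In PTZ cells its median was 621 TPM (0 to 7026) and in saline cells 930 TPM (11.9 to 2782). The mean log2(TPM + 1) of *Malat1* exceeded that of *Meg3* by more than the SD between cells in all 5 groups, by 4.39 in saline cells and 8.04 in HC nuclei at the extremes. *Malat1* was the higher of the pair in every cell and nucleus kept. *Meg3* in turn exceeded the next member by more than the SD between cells in FOS− nuclei, HC nuclei, PTZ cells and saline cells, and just missed that in FOS+ nuclei, by 2.57 against an SD of 2.58.

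*Rian*, *Snhg11* and *Miat* followed at intermediate levels. *Rian* had a median of 506 TPM in FOS+ nuclei (0 to 2645), 141 in FOS− nuclei (0 to 3342), 9.98 in HC nuclei (0 to 4341), 94.3 in PTZ cells (0 to 685) and 100.4 in saline cells (0 to 453). A single nucleus held 45.9% of the *Rian* counts of the HC set. *Snhg11* had a median of 39.2 TPM in FOS+ nuclei (0 to 4350), 394 in FOS− nuclei (6.69 to 8098), 115 in HC nuclei (3.66 to 3162), 97.0 in PTZ cells (0 to 7051) and 135 in saline cells (0 to 848). *Miat* had a median of 75.1 TPM in FOS+ nuclei (0 to 285), 117.1 in FOS− nuclei (0 to 949), 78.5 in HC nuclei (0 to 579), 32 in PTZ cells (0 to 565) and 32.5 in saline cells (0 to 225). The levels of *Rian*, *Snhg11* and *Miat* did not differ beyond the SD between cells where they were neighbours in the order of levels, in any group.

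*Mirg* and *Neat1* were the lowest of the 7. *Mirg* was detected in 25 of 40 FOS+ nuclei, 14 of 41 FOS− nuclei, 2 of 23 HC nuclei, 10 of 30 PTZ cells and 7 of 38 saline cells. *Neat1* was detected in 20 of 40 FOS+ nuclei, 7 of 41 FOS− nuclei, 3 of 23 HC nuclei, 2 of 30 PTZ cells and 5 of 38 saline cells. Their order differed between groups, *Neat1* being the lower in FOS+ nuclei, FOS− nuclei, PTZ cells and saline cells and *Mirg* in HC nuclei, with no difference between them beyond the SD between cells. The member above them exceeded the higher of them by more than that SD in FOS− nuclei, HC nuclei and saline cells, and not in FOS+ nuclei or PTZ cells.

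**Figure D1:**
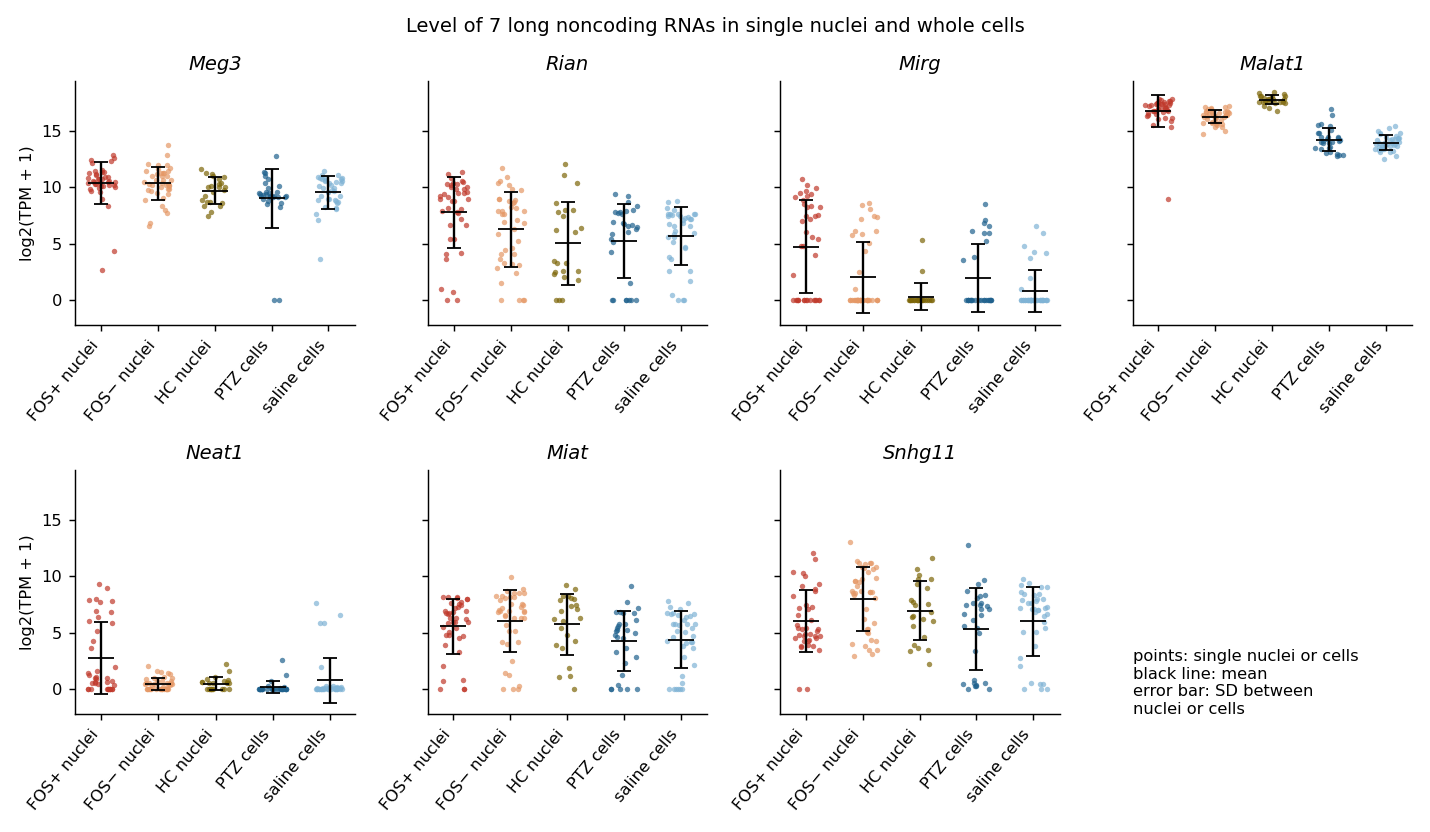
Level of the 7 lncRNA genes as log2(TPM + 1) in each nucleus or cell kept, 1 panel per gene and 1 column of points per group, with the mean as a line and the SD between nuclei or cells as error bar. *Malat1* sits highest in all 5 groups, *Mirg* is spread from 0 to 1725 TPM in FOS+ nuclei, and *Neat1* exceeds 10 TPM in 14 of 40 FOS+ nuclei and no FOS− nucleus.

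FOS+ and FOS− nuclei were compared to describe how these RNAs differ with FOS protein within 1 mouse. The paper set apart FOS+ nuclei whose RNA grouped with that of FOS− nuclei, and such nuclei were not removed here. *Mirg*, *Neat1* and *Rian* were higher in FOS+ nuclei, *Snhg11* was lower, and *Meg3*, *Malat1* and *Miat* differed by less than 1 on the log2 scale. 3 of the 7 genes were higher by at least 1 in mean log2(TPM + 1), compared with 5.84% of the 16387 genes measured in at least 5 of these nuclei. 1 gene was lower by at least 1, compared with 8.01% of all genes. None of the 7 passed the rule of size, a difference of at least 1 that is also at least the pooled SD between nuclei, which 0.482% of all genes passed. The median difference was 0.49 over the 7 genes and −0.09 over all genes.

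*Neat1* came closest to the rule. Its TPM ranged from 0 to 636 in FOS+ nuclei with a median of 0.990, and from 0 to 3.08 in FOS− nuclei with a median of 0.31. The groups overlapped at the low end, where 11 FOS+ nuclei had no *Neat1* at all, and parted at the high end, where 14 of 40 FOS+ nuclei and 0 of 41 FOS− nuclei exceeded 10 TPM. The mean log2(TPM + 1) was 2.72 ± 3.19 (SD, n = 40) in FOS+ nuclei and 0.47 ± 0.54 (SD, n = 41) in FOS− nuclei, a difference of 2.26 against a pooled SD of 2.28. Ranked by difference over SD, *Neat1* was 72nd of the 16387 genes.

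Summed over nuclei, *Neat1* had 274 CPM (counts scaled to a total of 1000000) in FOS+ nuclei (95% exact Poisson interval 265 to 283) and 5.65 in FOS− nuclei (4.47 to 7.05), intervals that cover counting error only. A single nucleus held 30.05% of the FOS+ sum. The share of nuclei with a TPM above 1 was 50% in FOS+ nuclei (95% Clopper-Pearson interval 33.8% to 66.2%) and 17.1% in FOS− nuclei (7.15% to 32.1%). At least 1 count was found in 29 of 40 FOS+ and 23 of 41 FOS− nuclei, and in 21 of 40 and 18 of 41 after every nucleus was thinned to 60000 counts. The gap in level was thus carried by a minority of FOS+ nuclei, while the medians of both groups were below 1 TPM.

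*Mirg* had the largest mean difference of the 7. Its TPM ranged from 0 to 1725 with a median of 45.1 in FOS+ nuclei, and from 0 to 390 with a median of 0 in FOS− nuclei. The groups overlapped, with 15 FOS+ nuclei and 27 FOS− nuclei below the detection limit of 1 TPM. The mean log2(TPM + 1) was 4.76 ± 4.10 (SD, n = 40) against 2.05 ± 3.15 (SD, n = 41), a difference of 2.71 with a pooled SD of 3.65. The share of nuclei with *Mirg* was 62.5% in FOS+ nuclei (45.8% to 77.3%) and 34.1% in FOS− nuclei (20.1% to 50.6%). After thinning to 60000 counts, at least 1 count remained in 57.5% and 26.8% of nuclei. The summed level was 218 CPM (210 to 226) against 20.5 (18.2 to 23.0).

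*Rian*, which lies between *Meg3* and *Mirg*, was detected at like rates, in 36 of 40 FOS+ and 37 of 41 FOS− nuclei. Its mean log2(TPM + 1) was 7.81 ± 3.15 (SD, n = 40) in FOS+ nuclei and 6.29 ± 3.33 (SD, n = 41) in FOS− nuclei. The difference of 1.52 was smaller than the pooled SD of 3.24, and the ranges overlapped over most of their length. With all deposited nuclei included, the difference was 0.96.

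*Meg3* differed by 0.02 in mean log2(TPM + 1), at 10.38 ± 1.84 (SD, n = 40) against 10.36 ± 1.47 (SD, n = 41). *Malat1* differed by 0.49, at 16.75 ± 1.40 (SD, n = 40) against 16.26 ± 0.59 (SD, n = 41), and *Miat* by −0.44 with a pooled SD of 2.60. *Snhg11* was the only member lower by at least 1 in FOS+ nuclei, at 6.04 ± 2.73 (SD, n = 40) against 7.94 ± 2.83 (SD, n = 41). That difference of −1.89 did not reach the pooled SD of 2.78, and the ranges of the groups overlapped. Between detection and level, *Snhg11* again differed in level, since it was detected in 38 of 40 FOS+ and 41 of 41 FOS− nuclei.

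The nuclei had been amplified under 4 conditions, set by the concentration of the template switching oligonucleotide (1 or 10 µM) and the dilution of the spike-in RNA (1:200 or 1:2000), and the difference was computed within each. *Mirg* was higher in FOS+ nuclei in 4 of 4 conditions, by 1.36 to 5.12. *Neat1* was higher in 4 of 4, by 1.00 to 3.23, and *Rian* in 4 of 4, by 0.30 to 2.41. *Malat1* was also higher in 4 of 4, by 0.11 to 0.90. *Snhg11* was lower in 4 of 4, with differences of −3.10 to −0.57, and *Miat* in 4 of 4, with differences of −0.83 to −0.02, while *Meg3* was higher in 2 and lower in 2.

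**Figure D2:**
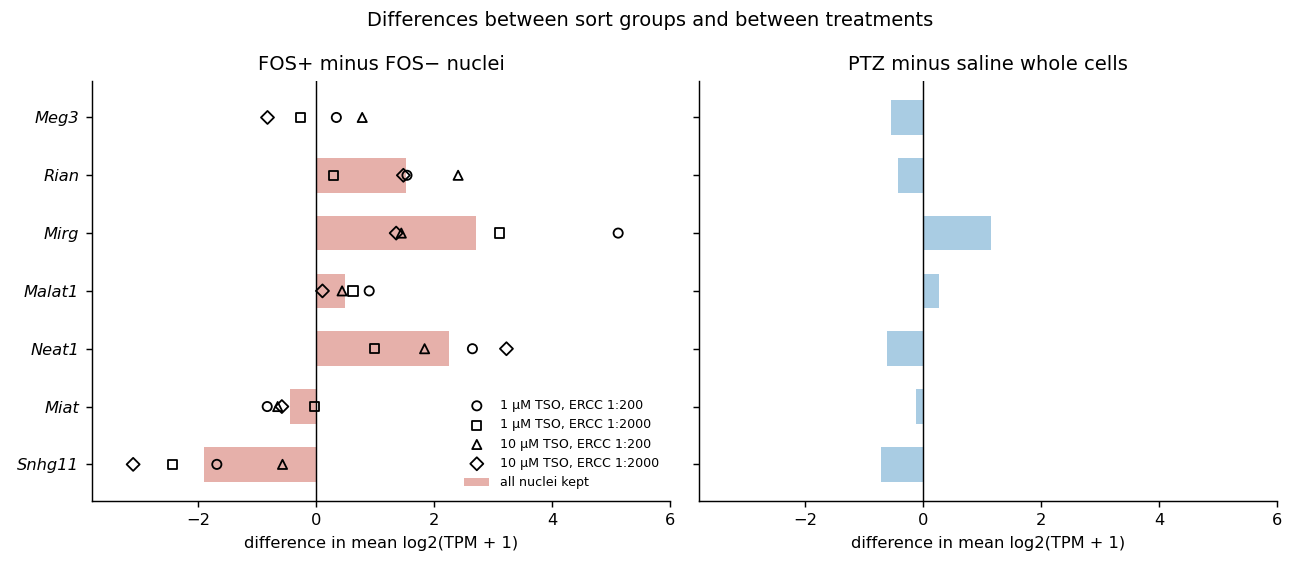
Difference in mean log2(TPM + 1) for each of the 7 genes, FOS+ minus FOS− nuclei on the left and PTZ minus saline whole cells on the right; bars are all nuclei or cells kept and the 4 symbols are the differences within each amplification condition of the nuclei. The symbols of *Rian*, *Mirg*, *Malat1* and *Neat1* all lie above 0, those of *Miat* and *Snhg11* below 0, and those of *Meg3* on both sides.

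1 FOS+ nucleus stood apart, with 1373 genes detected, a *Malat1* level of 512 TPM and a *Meg3* level of 5.64 TPM, each the lowest of its group. Without it the difference was 2.33 for *Neat1*, which then passed the rule of size, 2.83 for *Mirg*, 1.72 for *Rian*, 0.69 for *Malat1*, 0.22 for *Meg3* and −1.74 for *Snhg11*. The *Mirg* level of FOS+ nuclei also moved with depth, with a Spearman correlation of 0.45 between *Mirg* and the total count over 40 nuclei, and the part of depth in the difference was covered only by the thinned shares above. A difference of medians in place of means gave 0.60 for *Neat1*, below 1, 5.52 for *Mirg* and −3.30 for *Snhg11*, the latter pair then past the rule of size.

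Markers of other cell types were found in both sort groups. Of 5 microglia markers, 3 were detected in any FOS+ nucleus and 2 in any FOS− nucleus, with summed levels of 0 to 1325 and 0 to 51.8 TPM, and *C1qa* and *Tyrobp* were at 0 in both while *Cx3cr1* was detected in 29 of 40 and 33 of 41 nuclei. Of 6 markers of GABAergic neurons, 4 and 5 were detected, with summed levels of 0 to 1360 and 0 to 5822 TPM, and *Gad1* was detected in 19 of 40 and 15 of 41 nuclei. Of 7 oligodendrocyte lineage markers, 5 and 7 were detected, with summed levels of 0 to 997 and 0 to 351 TPM. Of 5 astrocyte markers, 4 were detected in each group, with summed levels of 0 to 584 and 0 to 413 TPM. Their part in the *Neat1* difference was not tested.

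The differences of the chromosome 12 genes were set beside those of their domain, the interval from *Begain* to *Dio3*, which was picked for description after the values of *Rian* and *Mirg* had been seen. It spans 1249 kb and holds 122 annotated genes, of which 69 are microRNA genes and 23 small nucleolar RNA genes. 17 of them, the 3 members included, were measured in at least 5 nuclei. 8 of the 17, *Rian* and *Mirg* among them, were higher in FOS+ nuclei by at least 1, beside 5.84% of all genes, 0 were lower by at least 1 and 14 had a difference above 0. The short genes among them rest on few reads. Of the 8, the small nucleolar RNA genes *Gm23474* and *Gm23347* lie inside *Rian* and *Gm37899*, and *Gm26906* lies inside *Meg3*. The 8 are therefore not separate observations. Of a shorter list of domain neighbours that holds no member, 2 of 8 measured genes were higher by at least 1, 0 were lower and none passed the rule of size.

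Among the long genes, the difference was 0.02 at *Meg3* and 1.52 at *Rian*, which starts 62.9 kb downstream. It was 1.02 at *Gm37899* (127.9 kb), 2.31 at *B830012L14Rik* (154.6 kb) and 2.71 at *Mirg* (188.8 kb), all on the same strand. *B830012L14Rik*, an lncRNA gene, was detected in 26 of 40 FOS+ and 16 of 41 FOS− nuclei. On the opposite strand, *Rtl1*, a retrotransposon-derived protein-coding gene expressed from the paternal chromosome, had a difference of 1.57 and was detected in 19 FOS+ and 10 FOS− nuclei. *Begain*, a protein-coding gene on that strand upstream of *Meg3*, had a difference of −0.36 and was detected in 8 FOS+ and 10 FOS− nuclei. *Gm26906*, an lncRNA gene annotated opposite the 3′ end of *Meg3*, had a difference of 2.19 and was detected in 14 FOS+ and 3 FOS− nuclei. The libraries do not keep the strand, so reads of *Rtl1* or *Gm26906* cannot be told apart from reads of unspliced transcript on the other strand.

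**Figure D3:**
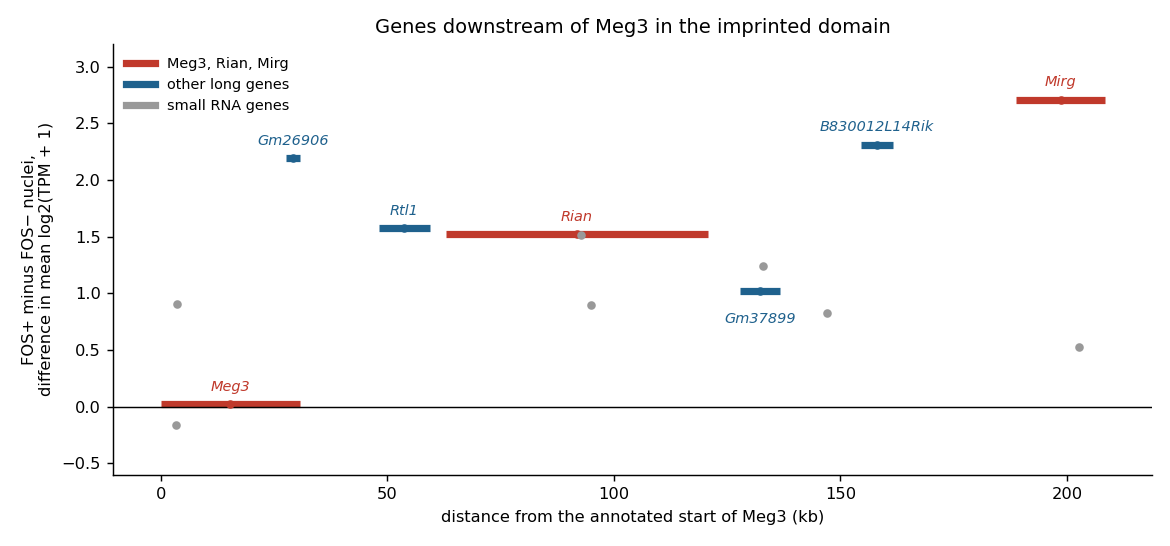
Difference in mean log2(TPM + 1) between FOS+ and FOS− nuclei for domain genes measured in at least 5 nuclei and starting at or after *Meg3*. Genes are plotted at their distance in kb from the annotated start of *Meg3*. Bars span long genes and grey points are small RNA genes. Measured genes before *Meg3* are not drawn, namely *Begain* at −0.36 and the microRNA genes *Gm22234* at −0.77 and *Gm25297* at 0.29. The difference is 0.02 at *Meg3* and 2.71 at *Mirg*, and *Rian* lies at 1.52 between them.

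Levels of the 3 chromosome 12 genes varied together to a limited degree among NE nuclei. The Spearman correlation of *Meg3* with *Rian* was 0.42 over 40 FOS+ nuclei and 0.46 over 41 FOS− nuclei, and *Rian* had the highest mean correlation with *Meg3* of the 4918 genes detected in at least 40 of the nuclei. *Rian* and *Mirg* had a correlation of 0.48 in FOS+ nuclei and 0.09 in FOS− nuclei. Over the 23 HC nuclei the correlation was 0.01 for *Meg3* with *Rian* and −0.28 for *Rian* with *Mirg*. Of the nuclei with *Mirg*, 24 of 25 FOS+ and 13 of 14 FOS− nuclei also had *Rian*. Among all nuclei, 36 of 40 FOS+ and 37 of 41 FOS− had *Rian*, so this overlap says little about joint variation. The genes most like *Malat1* were *Pvrl3*, *A830036E02Rik* and *Tanc1* (mean correlations 0.50, 0.48 and 0.44). Those most like *Neat1* were *Wdr44*, *Ddx26b* and *Ttll5* (0.43, 0.42 and 0.40), and those most like *Snhg11* were *Srgap3*, *Uty* and *4932414N04Rik* (0.48, 0.46 and 0.44). The points of these correlations share 1 mouse, 1 sort and differences in depth.

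Genes with related roles gave a mixed picture between FOS+ and FOS− nuclei. Of all genes, 5.84% were higher by at least 1, 8.01% were lower by at least 1 and 0.482% passed the rule of size. Of 16 genes of paraspeckle proteins, the partners of *Neat1*, 1 was higher by at least 1 and 3 were lower. Their median difference was −0.04, and none passed the rule of size. The higher one was *Sfpq*, at 2.72, which did not reach its pooled SD. Of 18 genes of nuclear speckle proteins and splicing factors, 4 were higher and 2 lower, with a median of 0.11. Of 10 other small nucleolar RNA host genes, 0 were higher and 2 lower. Of 13 other lncRNA genes, 2 were higher and 1 lower, with a median of −0.29. Of 7 neighbours of *Malat1* and *Neat1*, 1 passed the rule of size, *Pola2*, a subunit of DNA polymerase alpha, at 5.36 ± 1.47 (SD, n = 40) against 3.22 ± 1.87 (SD, n = 41).

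PTZ, a seizure-inducing drug, was compared with saline in whole cells, where pool and plate are the same split as treatment. No member passed the rule of size, and 1 was higher after PTZ by at least 1. This was *Mirg*, and 4.09% of the 13748 genes measured in these cells were as much higher. No member was lower by at least 1, compared with 8.47% of all genes, and 0.189% of all genes passed the rule. The median difference was −0.42 over the 7 genes and −0.06 over all genes.

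*Mirg* ranged from 0 to 364 TPM in PTZ cells and from 0 to 96.5 TPM in saline cells, with a median of 0 in both. It was detected in 10 of 30 PTZ cells (33.3%, interval of the share 17.3% to 52.8%) and 7 of 38 saline cells (18.4%, 7.74% to 34.3%), and these intervals overlap. The mean log2(TPM + 1) was 2.00 ± 2.99 (SD, n = 30) against 0.86 ± 1.87 (SD, n = 38). The difference was 1.14, and a single cell held 41.2% of the PTZ counts. Leaving out any 1 of 5 PTZ cells brought the difference below 1.

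The other 6 differences lay between −0.71 and 0.26. *Snhg11* differed by −0.71, at 5.30 ± 3.65 (SD, n = 30) against 6.01 ± 3.03 (SD, n = 38), and *Meg3* by −0.54, at 9.03 ± 2.63 (SD, n = 30) against 9.57 ± 1.45 (SD, n = 38). *Meg3* was not detected in 2 of 30 PTZ cells and was detected in all 38 saline cells. *Malat1* differed by 0.26, at 14.22 ± 1.04 (SD, n = 30) against 13.96 ± 0.65 (SD, n = 38). *Neat1* was above 10 TPM in 4 of 38 saline cells and 0 of 30 PTZ cells, a difference of −0.61. The activity-induced genes were detected in both treatments, *Fos* in 26 of 30 PTZ and 30 of 38 saline cells and *Arc* in 14 of 30 and 17 of 38. All 8 such genes had a lower mean level after PTZ, with differences of −2.24 to −0.46 and a median of −1.61. The difference was at least 1 for 6 of them, beside 8.47% of all genes, and none passed the rule of size. The median of *Fos* was 44 TPM after PTZ and 497 TPM after saline.

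Nuclei and whole cells were set side by side to describe where the members are found in the cell. These groups differ in strain, mouse, isolation by homogenisation or protease and table, which cannot be told apart from the compartment. NE nuclei also differ from whole cells in read length, and HC nuclei differ from them in platform. Saline cells also differed from the nuclei in sex-linked transcripts, with *Xist* detected in 0 of 38 saline cells and 41 of 41 FOS− nuclei, while the 7 members are autosomal. The Y-linked *Eif2s3y* was detected in 35 of 38 saline cells, but also in 10 of 41 FOS− and 12 of 40 FOS+ nuclei, which came from a mouse described as female. Nuclear RNA of the same cell was not measured, so a share is a share of the counts of a nucleus or of a cell, and less RNA per nucleus cannot be told apart from more of a given lncRNA.

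As a share of all counts, *Malat1* took a median of 3.31% in FOS− nuclei and 0.622% in saline cells, and 35 of 41 FOS− nuclei exceeded every saline cell. In FOS+ nuclei the median was 5.36%, and 37 of 40 nuclei exceeded every saline cell. In HC nuclei it was 10.6%, and 23 of 23 nuclei exceeded every saline cell. The ratio of medians to saline cells was 5.32 for FOS− and 17.1 for HC nuclei, so the nuclear groups also stood apart from each other. In PTZ cells the median was 0.772%, and 41 of 41 FOS− nuclei exceeded that median. The highest PTZ cell was exceeded by only 3 of 41 FOS− nuclei, 19 of 40 FOS+ nuclei and 21 of 23 HC nuclei.

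*Meg3* took like shares of 0.455%, 0.440% and 0.443% in FOS+, FOS− and HC nuclei, and 0.0798% and 0.0901% in PTZ and saline cells. Of the FOS− nuclei, 35 of 41 exceeded every saline cell, but only 2 of 41 exceeded every PTZ cell. *Miat* took 0.0625% in FOS− nuclei and 0.0111% in saline cells, *Snhg11* 0.125% and 0.0274%, and *Rian* 0.0183% and 0.00843%. These median shares were not higher than in saline cells in every nuclear group, since *Snhg11* took 0.00721% in FOS+ nuclei and *Rian* 0.00319% in HC nuclei. Summed counts went the other way for this pair. *Snhg11* summed to 812 CPM in FOS+ nuclei and 351 in saline cells, and *Rian* to 858 in HC nuclei and 114 in saline cells. The direction thus depended on the measure. *Mirg* had a median share of 0 in FOS− nuclei and in saline cells. By sum it had 20.5 CPM in FOS− nuclei (18.2 to 23.0) and 2.94 in saline cells (2.44 to 3.51). *Neat1* summed to 5.65 CPM in FOS− nuclei (4.47 to 7.05), 6.04 in HC nuclei (3.86 to 9.02) and 274 in FOS+ nuclei (265 to 283). It summed to 17.4 CPM in saline cells (16.2 to 18.7), where 1 cell held 34.6% of the counts, and to 0.824 in PTZ cells (0.572 to 1.15), so the FOS− and HC sums lay below one treatment and above the other. All 7 genes together took a median of 6.46% of counts in FOS+ nuclei, 4.08% in FOS− nuclei, 11.02% in HC nuclei, 0.843% in PTZ cells and 0.795% in saline cells.

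**Figure D4:**
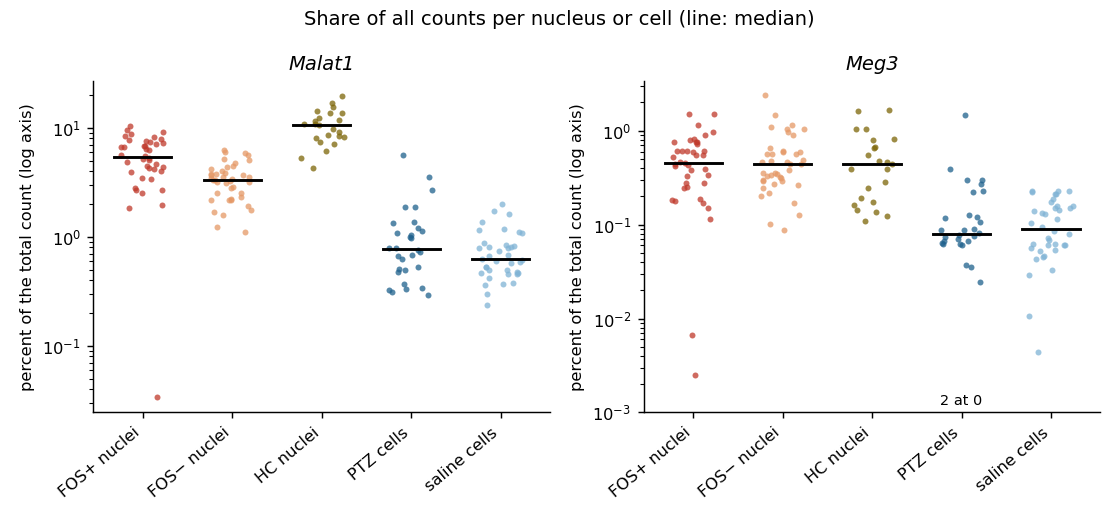
Percent of the total count (log axis) taken by *Malat1* and *Meg3* in each nucleus or cell, with a line at the group median. The 23 HC nuclei all lie above the highest of the 38 saline cells for *Malat1*, and the 3 nuclear medians of *Meg3* lie within 0.440% to 0.455%.

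On the TPM scale 4 of the 7 genes were higher by at least 1 in FOS− nuclei than in saline cells, compared with 21.5% of 16543 genes, and 0 were lower by at least 1, compared with 29% of genes. 1 passed the rule of size, compared with 22.8% of genes. This was *Malat1*, at 16.26 ± 0.59 (SD, n = 41) against 13.96 ± 0.65 (SD, n = 38), a difference of 2.30 or 4.92-fold. The others higher by at least 1 were *Snhg11* (1.93), *Miat* (1.61) and *Mirg* (1.20), none beyond its pooled SD. *Meg3* differed by 0.79 in log2(TPM + 1) but by 2.34 in log2(CPM + 1), so its size depended on the scale. *Rian* differed by 0.60 and *Neat1* by −0.32.

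With FOS+ nuclei in the place of FOS− nuclei, 5 members were higher than saline cells by at least 1 (21.8% of genes) and 2 passed the rule of size (25.7% of genes), *Mirg* at 3.90 and *Malat1* at 2.79. With HC nuclei, 2 were higher by at least 1 (9.64% of genes) and 1 passed the rule (30.4% of genes), *Malat1* at 3.78, 3rd of 12814 genes by difference over SD. *Miat* was the other, at 1.35. The median difference over all genes was −1.13 in that comparison and −0.02 with FOS− nuclei. *Mirg* was lower in HC nuclei than in saline cells, with a difference of −0.51, having been detected in 2 of 23 HC nuclei.

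Part of the *Malat1* locus was counted elsewhere. *Gm37376*, annotated at chr19:5801941-5802393 on the strand opposite *Malat1* and inside it, held counts equal to 1.31% and 0.965% of those of *Malat1* in FOS+ and FOS− nuclei, read as single ends of 50 bases. In HC nuclei, PTZ cells and saline cells, read as paired ends of 100 bases, it held 28.9%, 26.6% and 30.3%. Reads of this stretch cannot be given to 1 strand. With both genes added, the median share was 5.45% in FOS+ nuclei, 3.37% in FOS− nuclei, 13.5% in HC nuclei, 0.988% in PTZ cells and 0.832% in saline cells, the same order as for *Malat1* alone.

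Other lncRNAs and cytoplasmic messenger RNAs (mRNAs) gave the scale of the nuclear difference. All 16 abundant cytoplasmic mRNAs on a list for this purpose were lower in FOS− nuclei than in saline cells and passed the rule of size, with a median difference of −4.74. Of 11 other lncRNA genes measured, 6 were higher by at least 1 and 3 lower, with a median of 1.44 beside 1.20 for the 7 members. *Airn* (4.29), *Kcnq1ot1* (3.88) and *Pvt1* (2.61) passed the rule upwards, of which *Airn* and *Kcnq1ot1* are antisense lncRNAs of imprinted loci, and *2900097C17Rik* passed it downwards at −4.37. Of 10 other small nucleolar RNA host genes, 3 were higher by at least 1 and 3 lower, with a median of −0.68. Only 1 of these passed the rule, *Snhg14*, the host of small nucleolar RNAs at the Prader-Willi locus, upwards at 3.90. Of 16 paraspeckle protein genes 2 were higher and 9 lower, and of 18 speckle and splicing factor genes 4 were higher and 9 lower.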

How the data were processed

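Each of the 201 samples was 1 cell or nucleus, amplified with Smart-seq2 or, for HC nuclei, on the Fluidigm C1. The authors aligned reads to mm10 with RSEM and Bowtie 1.0.0. They deposited the expected count of each gene symbol without normalisation, fractional where a read was shared, and the TPM of the same symbol, scaled by the authors within each cell.

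Cells and nuclei were assigned to groups by their labels and kept if the total count exceeded 50000 and the number of genes with a TPM above 1 exceeded the mean minus 2 SD of the table, a limit that lay below 0 for whole cells and so removed none of them. All 23 HC nuclei were kept, 1 below that limit on genes included. Levels were compared as means of log2(TPM + 1) over genes with a TPM above 1 in at least 5 cells, with no test, since each group is 1 mouse or 1 pool. Shares were taken from counts, intervals are 95% Clopper-Pearson or exact Poisson, and both cover counting error only, since the libraries carry no molecular identifiers and PCR copies are counted as reads. A count of 3 was at most 0.00470% of a kept library. Python 3.11.15 (numpy 2.4.6, pandas 2.3.3, SciPy 1.17.1) was used, with edgeR 4.0.16 for TMM factors in an alternative scaling. Positions came from GENCODE for GRCm38, which held 41839 of the 42802 symbols for NE nuclei. Alternatives covered scaling, pseudocount, filters, medians, thinning and leaving out single cells. The computation of differences was checked on simulated counts with known changes, planted only in genes of above-median level. Those changes were larger than any member difference between FOS+ and FOS− nuclei or PTZ and saline cells, so smaller changes were not covered. Genes named outside the 7 members were up to 4 per gene list and comparison that passed the rule of size with the largest differences, and the 3 genes most like *Meg3*, *Malat1*, *Neat1* and *Snhg11* by mean Spearman correlation. *Sfpq*, the domain genes, *Gm37376* and the sex-linked genes were named after their values were seen. The members and lists were chosen with earlier results of these data known.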

Additional observations from a re-analysis of the deposited data

How the results depend on the processing

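No paired analysis was possible because the replicate numbers only name cells. FOS+ and FOS− nuclei share their 4 amplification conditions, and the mean of the within-condition differences left 3 members higher by at least 1, 1 lower and 0 past the rule of size. Limits: each group is 1 mouse or pool, the tables were normalised separately, and *Mirg* and *Neat1* were found in few cells. The number of members past the rule of size between FOS+ and FOS− nuclei was 0 and became 1, *Neat1*, with TPM scaled to genes other than the members, without the FOS+ nucleus with the fewest genes (added after seeing the data), and with differences centred on the median of all genes (also added). It became 2, *Mirg* and *Snhg11*, with a difference of medians. Leaving out each of 81 nuclei in turn gave 0 to 1, the count changing for 25 of them. The number higher after PTZ was 1 and became 0 with a pseudocount of 10 TPM and with a difference of medians. Leaving out each of 68 cells gave 0 to 1, changing for 5 PTZ cells. Of nuclei against saline cells, the number higher was 4 and became 2 with HC nuclei, and the number past the rule was 1 and became 2 with log2(CPM + 1), with FOS+ nuclei, and with *Malat1* and *Gm37376* summed for FOS− or HC nuclei (both added later). The *Mirg* difference of 1.20 turned to −0.51 with HC nuclei and −0.24 with HC nuclei on the summed scale. The share of FOS− nuclei with *Neat1*, 17.1%, became 0% at a TPM above 5 and 43.9% for 1 count after thinning. The cause of these shifts was not tested. Without the low filter, the percent of all genes past the rule was 0.185% for FOS+ against FOS−, 0.0608% for PTZ against saline and 8.86% for FOS− nuclei against saline. All 91 member differences under the alternatives for FOS+ against FOS− and all 77 for PTZ against saline moved by less than the SD between cells.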
